A study of Mus musculus with 4 samples.

Results

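The 9 genes *Slc38a2*, *Slc38a4*, *Slc1a5*, *Slc7a5*, *Slc7a8*, *Slc3a2*, *Slc7a1*, *Slc7a2* and *Slc43a1* encode carriers, or the shared subunit of carriers, that move amino acids across the plasma membrane of muscle and other cells. They were chosen by gene name, with earlier results of these data known. Each of the 9 names was found among the 22252 gene names measured by RNA-seq in gastrocnemius muscle. All 9 were above 0 in all 4 libraries with a mean of at least 1 CPM (counts scaled to a common library total), and thus all 9 entered the comparisons across 12260 genes that met the same rule. Lean mice (Lep+/+) were compared with leptin-deficient *ob/ob* mice (Lepob/ob), each with or without the glucocorticoid receptor (GR, the product of *Nr3c1*) in myofibers. In each background, GR fl/fl mice kept and GR-mKO mice lost the receptor in myofibers, which gives 4 groups of mice, all C57BL/6J males at 7 weeks of age and none with a treatment in the labels. All 4 groups carried *Nr3c1* alleles with a floxed exon 3 (GR Flox+/+), and the GR-mKO groups also carried the *Acta1*-Cre transgene (Cre+/-), which the GR fl/fl groups lacked (Cre-/-). Because *Acta1*-Cre acts in myofibers, the vessel, blood, fat and connective tissue cells within the muscle kept their GR. Each group was sequenced once, from the combined RNA of 3 mice, so the data hold no spread between mice, and no difference between groups could be tested against it. A call here means a difference of at least 1.5-fold between libraries, and it is read against the share of all 12260 genes past the same fold.

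The libraries held between 19897754 and 20959781 expected counts, at which 3 counts correspond to 0.143 to 0.151 CPM. *Nr3c1* was at 124.9 CPM in the lean GR fl/fl, 67.0 CPM in the lean GR-mKO, 102 CPM in the *ob/ob* GR fl/fl, and 39.1 CPM in the *ob/ob* GR-mKO library, lower in both GR-mKO libraries. The GR target *Fkbp5* was at 88.8, 22.8, 105.8 and 26.1 CPM in the same order. *Lep*, whose ob allele still gives a transcript, was at 14.1, 5.89, 69.6 and 42.1 CPM. Muscle fiber markers were abundant in all 4 libraries, at a summed 108914 to 124464 CPM over 8 genes.

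Amino acids enter and leave muscle fibers through several families of carriers. System A carriers couple neutral amino acids to sodium and can concentrate them inside the cell, whereas exchangers swap 1 amino acid for another and thereby let the concentrated pool drive the uptake of essential amino acids such as leucine. Several exchangers work only as heterodimers, in which a light chain that binds the substrate is held at the membrane by a heavy chain. Skeletal muscle releases alanine and glutamine for use by the liver and gut, and glucocorticoids are known for raising this release during fasting and stress.

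Promoter sequence was available for 6 of the 9 genes, in 9 windows that cover the 250 bases before a RefSeq transcription start on GRCm38.p6. *Slc1a5*, *Slc7a2* and *Slc7a5* had no window. Windows of *Slc38a4*, *Slc7a8* and *Slc38a2* are shown because these genes were lower with GR loss in both backgrounds beyond counting error. *Slc1a5* and *Slc7a2* were so too but could not be shown. *Slc38a4* is shown at an outer start, that of the transcript listed for it in the data, and at an inner start. Capitals mark TGTTCT, the 6-base arm of the palindrome that GR binds, which was searched on both strands.
*Slc38a4*, outer start, chr15:97055957-97056206, minus strand: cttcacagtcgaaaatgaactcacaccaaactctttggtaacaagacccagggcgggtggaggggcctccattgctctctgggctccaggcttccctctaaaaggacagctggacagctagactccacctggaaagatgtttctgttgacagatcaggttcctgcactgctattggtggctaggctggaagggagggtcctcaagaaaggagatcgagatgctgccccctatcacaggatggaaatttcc
*Slc38a4*, inner start, chr15:97020360-97020609, minus strand: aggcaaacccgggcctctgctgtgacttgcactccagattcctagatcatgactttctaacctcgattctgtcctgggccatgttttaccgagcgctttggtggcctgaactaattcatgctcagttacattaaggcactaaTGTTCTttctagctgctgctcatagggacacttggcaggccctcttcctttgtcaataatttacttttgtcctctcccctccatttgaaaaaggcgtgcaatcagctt
*Slc7a8*, chr14:54781887-54782136, minus strand: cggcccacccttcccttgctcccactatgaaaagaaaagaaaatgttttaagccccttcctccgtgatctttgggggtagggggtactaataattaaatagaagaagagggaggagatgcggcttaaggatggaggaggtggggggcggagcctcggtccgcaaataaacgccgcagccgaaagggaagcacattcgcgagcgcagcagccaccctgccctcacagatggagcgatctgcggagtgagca
*Slc38a2*, chr15:96699729-96699978, minus strand: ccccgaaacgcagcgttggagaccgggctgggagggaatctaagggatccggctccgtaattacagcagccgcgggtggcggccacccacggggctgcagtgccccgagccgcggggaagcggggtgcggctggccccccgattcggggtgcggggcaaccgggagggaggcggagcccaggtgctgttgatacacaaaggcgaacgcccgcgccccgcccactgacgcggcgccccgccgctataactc
TGTTCT was found in the inner *Slc38a4* window shown, 108 bases before the start, and in 1 window of *Slc7a1*, thus in 2 of 9 windows. Another inner *Slc38a4* window, at chr15:97031214-97031463, lacked TGTTCT and is not shown. The same letters were found in 16.1% of all 32851 promoter windows of this length. The full palindrome is this arm and its reverse complement on either side of 3 bases, and so overlaps the single arm. It was found in 3 of all windows (0.00913%), and the amino acid response element TGATGNAAT in 268 (0.816%). Neither was in the 9 windows of these 6 genes, and sequence outside the windows, such as that after the start, was not searched. The windows differed in base composition, with a G and C content of 72% and 30 CpG dinucleotides for *Slc38a2* against 52.8% and 3 for the outer *Slc38a4* window. These matches describe the letters in the windows and do not show binding.

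*Slc38a2* encodes SNAT2, a sodium-coupled carrier of alanine, glutamine and other small neutral amino acids (chr15:96687392-96699730, minus strand). It was at 191 CPM (95% Wilson interval 185 to 197) in the lean GR fl/fl, 134 CPM (129 to 139) in the lean GR-mKO, 206 CPM (199.5 to 212) in the *ob/ob* GR fl/fl, and 158 CPM (153 to 163) in the *ob/ob* GR-mKO library. Both GR-mKO libraries were thus below both GR fl/fl libraries, by 1.43-fold in lean and 1.30-fold in *ob/ob* mice, and the *ob/ob* library was slightly above the lean library of each genotype. These intervals, like all those given here, cover counting error only, and include neither the spread between mice nor the uncertainty of assigning reads to transcripts. *Slc38a4* encodes SNAT4, a System A carrier that also takes cationic amino acids (chr15:96994820-97055956, minus strand). It was at 104 CPM (99.8 to 109), 73.8 CPM (70.1 to 77.6), 90.9 CPM (86.9 to 95.1) and 51.8 CPM (48.8 to 54.97) in the same order. Both GR-mKO libraries were again below both GR fl/fl libraries, but the *ob/ob* library was below the lean library of each genotype, and the level in the *ob/ob* GR-mKO library was 2.01-fold below that in the lean GR fl/fl library. *Slc1a5* encodes ASCT2, a sodium-dependent exchanger of glutamine, alanine, serine and cysteine (chr7:16781340-16798274, plus strand). Its levels were 107 CPM (103 to 112), 78.1 CPM (74.3 to 82.1), 77.1 CPM (73.4 to 80.95) and 45.5 CPM (42.6 to 48.4). The lean GR-mKO and the *ob/ob* GR fl/fl libraries had overlapping intervals, the lean GR fl/fl library was the highest, and the *ob/ob* GR-mKO library was the lowest, 2.36-fold below it.

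*Slc7a8* and *Slc7a5* encode LAT2 and LAT1, light chains that exchange large neutral amino acids, and *Slc3a2* encodes 4F2hc (CD98), the heavy chain that both need. *Slc7a8* (chr14:54722209-54781946, minus strand) was at 42.4 CPM (39.7 to 45.3) in the lean GR fl/fl, 25.1 CPM (23.02 to 27.4) in the lean GR-mKO, 24.2 CPM (22.2 to 26.4) in the *ob/ob* GR fl/fl, and 19.6 CPM (17.8 to 21.6) in the *ob/ob* GR-mKO library. The lean GR fl/fl library stood above the other 3, which lay between 19.6 and 25.1 CPM. *Slc7a5* (chr8:121881150-121907694, minus strand) was lower and ran the other way, at 6.81 CPM (5.76 to 8.01), 6.95 CPM (5.87 to 8.19), 9.11 CPM (7.91 to 10.5) and 10.05 CPM (8.76 to 11.5), with both *ob/ob* libraries above both lean libraries. The interval of the *ob/ob* GR fl/fl library overlapped those of the lean libraries. *Slc7a5* rested on 138 to 210 expected counts a library and overlaps the protein-coding gene *Gm20388* on the opposite strand. Whether the counting used strand was not given in the sources used here. *Slc3a2* (chr19:8706882-8723369, minus strand) was at 34.3 CPM (31.9 to 36.9), 36.5 CPM (33.9 to 39.2), 35.9 CPM (33.45 to 38.6) and 32.7 CPM (30.3 to 35.2). Its 4 intervals overlapped, and its level in the lean GR fl/fl library was 1.05-fold that in the *ob/ob* GR-mKO library. The highest level of *Slc3a2*, in the lean GR-mKO library, was 1.12-fold its lowest, in the *ob/ob* GR-mKO library.

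*Slc7a1* and *Slc7a2* encode CAT1 and CAT2, which carry arginine, lysine and ornithine. *Slc7a2* (chr8:40862396-40922308, plus strand) was at 74.97 CPM (71.3 to 78.8) in the lean GR fl/fl, 48.1 CPM (45.1 to 51.2) in the lean GR-mKO, 54.3 CPM (51.3 to 57.6) in the *ob/ob* GR fl/fl, and 33.1 CPM (30.8 to 35.7) in the *ob/ob* GR-mKO library. The lean GR fl/fl library was the highest and the *ob/ob* GR-mKO library the lowest, 2.26-fold below it, and both GR-mKO libraries were below both GR fl/fl libraries. *Slc7a1* (chr5:148327410-148399904, minus strand) was at 10.2 CPM (8.97 to 11.7), 9.11 CPM (7.86 to 10.5), 13.5 CPM (12.02 to 15.2) and 12.4 CPM (10.9 to 13.96). Like *Slc7a5*, it was higher in both *ob/ob* libraries, although the interval of the *ob/ob* GR-mKO library overlapped that of the lean GR fl/fl library. *Slc43a1* encodes LAT3, a facilitator of branched-chain and other large neutral amino acids that needs neither sodium nor a heavy chain (chr2:84838850-84863594, plus strand). It was at 25.9 CPM (23.8 to 28.2), 25.7 CPM (23.5 to 28.01), 19.3 CPM (17.5 to 21.2) and 15.9 CPM (14.3 to 17.7). The lean libraries differed by 1.01-fold, and both *ob/ob* libraries were below them.

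**Figure D1:**
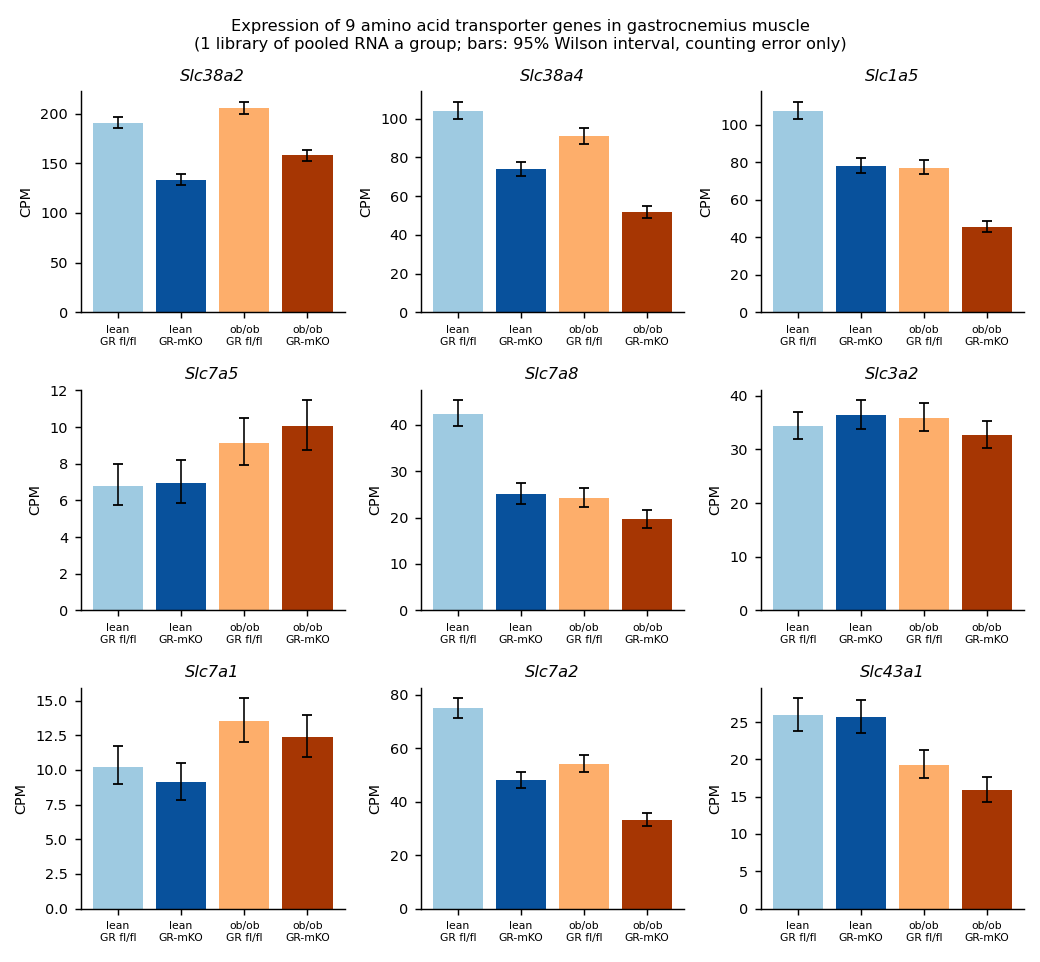
Level of each transporter gene in CPM (vertical axis from 0, a separate scale for each gene) in the 4 libraries, with bars for the level and whiskers for the 95% Wilson interval of the counts. *Slc38a4*, *Slc1a5*, *Slc7a2*, *Slc7a8* and *Slc43a1* are highest in the lean GR fl/fl and lowest in the *ob/ob* GR-mKO library, *Slc7a5* and *Slc7a1* are higher in both *ob/ob* libraries, and *Slc3a2* lies between 32.7 and 36.5 CPM.

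Per kilobase of the transcript listed in the files, which allows levels to be compared roughly between genes, the 9 genes spanned a wide range. The median over the 4 libraries was 37.4 CPM per kilobase for *Slc38a2* (28.7 to 44.1), 28.1 for *Slc1a5* (16.4 to 38.9), 20.9 for *Slc38a4* (13.2 to 26.5) and 19.3 for *Slc3a2* (17.97 to 20.04). A middle group followed, with a median of 7.28 CPM per kilobase for *Slc43a1* (5.15 to 8.39), 6.47 for *Slc7a2* (4.19 to 9.48) and 6.04 for *Slc7a8* (4.80 to 10.4). *Slc7a5*, at 2.28 (1.94 to 2.86), and *Slc7a1*, at 1.57 (1.27 to 1.88), were the lowest in all 4 libraries. Of 32 pairs of neighbors in the order within a library, 11 had overlapping counting intervals and are not ranked against each other here. Overlap alone does not show that their levels were equal. In both lean libraries, *Slc38a2* and *Slc1a5* were such a pair, at 41.0 and 38.9 CPM per kilobase in the GR fl/fl library, whereas in both *ob/ob* libraries *Slc38a2* stood alone at the top. *Slc38a2* made up 26.1%, 23.99%, 31.9% and 33.8% of the 9 genes' summed CPM per kilobase in the lean GR fl/fl, the lean GR-mKO, the *ob/ob* GR fl/fl, and then the *ob/ob* GR-mKO library. For *Slc3a2* the listed transcript is not the longest protein-coding transcript of its gene, and with the longest its median would be 12.5 CPM per kilobase.

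The GR-mKO library was set against the GR fl/fl library within each background to ask what the loss of myofiber GR changed. *Slc38a2*, *Slc38a4*, *Slc1a5*, *Slc7a1*, *Slc7a2*, *Slc7a8* and *Slc43a1* were lower without muscle GR in both backgrounds, 7 of 9 genes, where 25.7% of all 12260 genes were lower in both. Both GR-mKO libraries were below both GR fl/fl libraries for *Slc38a2*, *Slc38a4* and *Slc7a2*, 3 of 9 genes, as for 11.1% of all genes. For *Slc43a1* in lean mice and for *Slc7a1* in both backgrounds, the counting interval of the ratio included 0 on the log2 scale. In lean mice, 2 of 9 genes were lower by at least 1.5-fold, where 4.38% of all genes were. They were *Slc7a8*, with a log2 ratio of -0.76 (-0.92 to -0.59), and *Slc7a2*, at -0.64 (-0.76 to -0.52), or 1.69-fold and 1.56-fold. None of the 9 was higher by that fold, where 6.44% of all genes were. In *ob/ob* mice, 3 of 9 genes were lower, where 9.44% of all genes were, namely *Slc38a4* at -0.81 (-0.92 to -0.70), *Slc1a5* at -0.76 (-0.88 to -0.65) and *Slc7a2* at -0.71 (-0.85 to -0.58). These correspond to 1.75-fold, 1.70-fold and 1.64-fold. None was higher, where 5.69% of all genes were. *Slc7a2* was the member past 1.5-fold in both backgrounds. *Slc38a2* did not reach 1.5-fold in either, with log2 ratios of -0.52 (-0.59 to -0.44) in lean and -0.38 (-0.45 to -0.31) in *ob/ob* mice. *Slc3a2* had a log2 ratio of 0.09 (-0.06 to 0.24) in lean and -0.14 (-0.29 to 0.02) in *ob/ob* mice, and *Slc7a5* of 0.03 (-0.32 to 0.38) and 0.14 (-0.15 to 0.43). The median of the 9 genes was -0.46 in lean and -0.30 in *ob/ob* mice, beside a median of 0.05 and -0.04 over all genes.

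The *ob/ob* library was set against the lean library within each genotype to ask what changed with obesity. A further question was whether it changed alike with and without muscle GR. The *ob/ob* mice also lacked leptin, so obesity and leptin deficiency cannot be told apart, and "with obesity" here stands for both. With GR intact, *Slc7a8* was lower by 1.75-fold (log2 ratio -0.81, -0.97 to -0.65), the 1 call among the 9 genes, where 13.1% of all genes were lower by at least 1.5-fold. None of the 9 was higher, where 5.89% of all genes were. Without muscle GR, 2 of 9 genes were lower, where 21.5% of all genes were, *Slc1a5* by 1.72-fold (-0.78, -0.90 to -0.66) and *Slc43a1* by 1.61-fold (-0.69, -0.90 to -0.49). None was higher, where 5.51% of all genes were. The counts of calls among the 9 genes were thus near the share over all genes in both obesity comparisons. *Slc38a4*, *Slc1a5*, *Slc7a2*, *Slc7a8* and *Slc43a1* were lower in *ob/ob* mice of both genotypes, 5 of 9 where 51.1% of all genes were. *Slc7a5* and *Slc7a1* had the opposite direction. The log2 ratio of *Slc7a5* was 0.42 (0.10 to 0.75) with and 0.53 (0.21 to 0.85) without GR, and that of *Slc7a1* was 0.40 (0.13 to 0.66) and 0.44 (0.16 to 0.72), or between 1.32-fold and 1.45-fold. Both *ob/ob* libraries were above both lean libraries for these genes, as for 15.1% of all genes. *Slc38a2* was at 0.11 (0.04 to 0.17) and 0.24 (0.17 to 0.32). *Slc3a2* was at 0.07 (-0.08 to 0.22) with and -0.16 (-0.31 to -0.0035) without GR. The latter interval excluded 0, but this ratio was -0.08 to 0.06 under the other scalings.

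The median of all genes was itself below 0 in the obesity comparisons, at -0.11 with and -0.20 without GR, and the median of the 9 genes was -0.20 and -0.36. Scaling with edgeR's TMM factors, which centers the genes, moved the median of all genes by 0.11 and 0.21. It changed the calls over all genes from 722 higher and 1603 lower to 1034 higher and 1168 lower with GR, and from 676 higher and 2634 lower to 1270 higher and 1624 lower without GR. Under TMM and under DESeq2 scaling, no member was lower past 1.5-fold without GR, whereas *Slc7a5* and *Slc7a1* were higher past it. The calls under GR loss held the same member genes under all 4 other scalings.

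**Figure D2:**
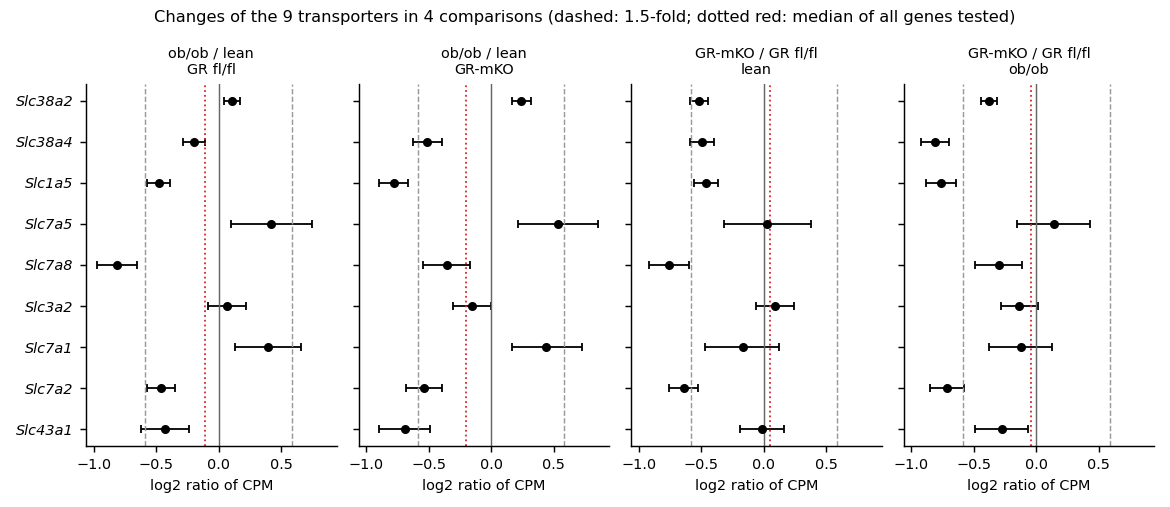
Log2 ratio of CPM (horizontal axis) for each transporter in the 4 comparisons, with points for the ratio of the first to the second library and whiskers for the 95% interval of the counts; dashed lines mark 1.5-fold and the dotted line the median of all genes. *Slc38a2*, *Slc38a4*, *Slc1a5*, *Slc7a2* and *Slc7a8* lie to the left of 0 with their whole interval in both panels of GR loss, while *Slc7a5* and *Slc7a1* lie to the right of 0 in both panels of obesity.

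The difference between the obesity changes of the genotypes, GR-mKO minus GR fl/fl, is the same number as the difference between the GR-loss changes of the backgrounds. It was 0.45 for *Slc7a8* (0.21 to 0.70, counting error only), whose level in the lean GR fl/fl library stood apart from the other 3. It was -0.31 for *Slc38a4* (-0.46 to -0.17) and -0.30 for *Slc1a5* (-0.45 to -0.15), whose lowest level was in the *ob/ob* GR-mKO library. It was -0.26 for *Slc43a1* (-0.54 to 0.01), -0.22 for *Slc3a2* (-0.43 to -0.01) and 0.14 for *Slc38a2* (0.04 to 0.23), and smaller in size for *Slc7a5* (0.11), *Slc7a2* (-0.07) and *Slc7a1* (0.04). Over all genes its median was -0.07, with the central 95% between -1.34 and 1.02, and all 9 genes lay inside this range. With 1 library a group, these differences could not be tested.

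Shares within a pair of genes do not depend on the scaling of the library, and the pairs were chosen after the levels had been seen. Of the counts of *Slc7a5* and *Slc7a8* together, *Slc7a5* made up 13.8% (11.8 to 16.1) in the lean GR fl/fl, 21.7% (18.6 to 24.99) in the lean GR-mKO, 27.4% (24.2 to 30.8) in the *ob/ob* GR fl/fl, and 33.9% (30.2 to 37.6) in the *ob/ob* GR-mKO library. *Slc7a1* made up 12.02% (10.6 to 13.6), 15.9% (13.9 to 18.1), 19.9% (17.9 to 22.1) and 27.2% (24.4 to 30.1) of the counts of *Slc7a1* and *Slc7a2*. In both pairs the carrier that is widespread among dividing cells, LAT1 or CAT1, had its lowest share in the lean GR fl/fl and its highest share in the *ob/ob* GR-mKO library, although for *Slc7a5* the intervals of the *ob/ob* libraries overlapped. The share of *Slc38a2* in the counts of *Slc38a2* and *Slc38a4* was 64.7% (63.5 to 65.9), 64.4% (62.96 to 65.9), 69.3% (68.2 to 70.5) and 75.3% (74.01 to 76.6), alike in the lean libraries and highest in the *ob/ob* GR-mKO library. These shares are of counts and not per length, so they do not give the proportion of molecules.

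**Figure D3:**
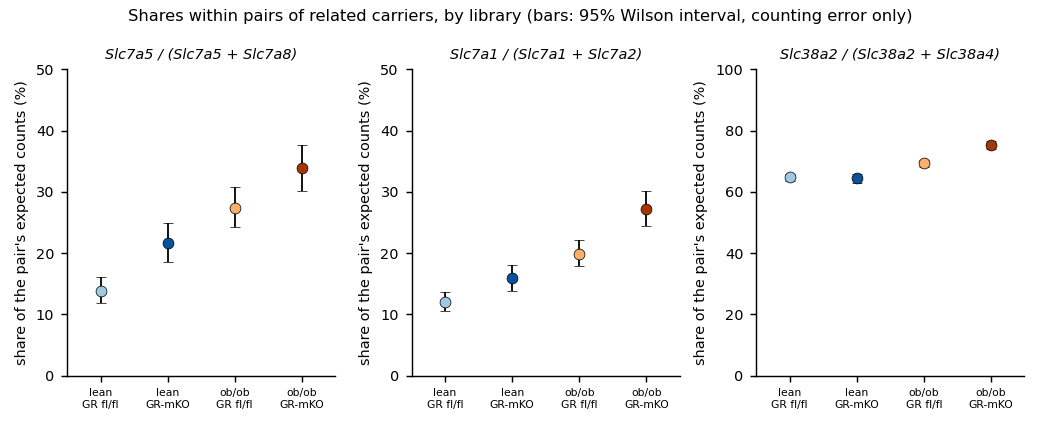
Share of the first gene in the summed expected counts of a pair (vertical axis, percent, from 0 to 50 or to 100) in each library, with points for the share and whiskers for the 95% Wilson interval. The share of *Slc7a5* runs from 13.8% to 33.9% and that of *Slc7a1* from 12.02% to 27.2% between the lean GR fl/fl and the *ob/ob* GR-mKO library, while that of *Slc38a2* runs from 64.4% to 75.3%.

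*Slc3a2* also serves light chains outside the 9 genes, *Slc7a6*, *Slc7a7*, *Slc7a10* and *Slc7a11*. All light chains together were at 20.1, 13.6, 15.2 and 12.9 CPM per kilobase in the lean GR fl/fl, the lean GR-mKO, the *ob/ob* GR fl/fl, and then the *ob/ob* GR-mKO library, against 18.9, 20.04, 19.8 and 17.97 for *Slc3a2*. The ratio of light chains to the heavy chain was 1.06 in the lean GR fl/fl library and 0.679 to 0.768 in the other 3. With the longest transcript of each gene it was 1.63 and 1.04 to 1.18, so the lean GR fl/fl library was the highest by either length, but whether light chains or the heavy chain were the more abundant depended on the length used. *Slc7a8* made up 51.7%, 45.2%, 39.02% and 37.2% of the light chains, and *Slc7a5* 9.64%, 14.5%, 17.1% and 22.1%. The heavy chain thus kept within a narrow range of levels while the sum and the makeup of its light chains varied between libraries.

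A list of 36 further amino acid transporters, some of which act in the lysosome rather than at the plasma membrane, had 20 genes that met the rule on low values. Of these 20, 1 was higher and 3 were lower with obesity where GR was intact, and 2 were higher and 2 lower without muscle GR, where 5.89% and 13.1%, and 5.51% and 21.5%, of all genes were higher and lower. With GR loss, 1 was higher and 3 were lower in lean mice, and 2 were higher and 2 lower in *ob/ob* mice, beside 6.44% and 4.38%, and 5.69% and 9.44%, of all genes. Medians were 0.0015, 0.0054, -0.12 and -0.04 in the same order. The summed level of the 36 genes was 549.7, 561, 615 and 609.6 CPM, in contrast to 597, 437, 529.9 and 379 CPM for the 9 genes. The 36 genes were thus slightly higher in sum in the *ob/ob* libraries, and the 9 genes were lower in sum in both GR-mKO libraries. The sum of the 36 rested in part on *Slc6a6*, at 119, 143, 154 and 166 CPM. That of the 9 rested in part on *Slc38a2*, at 191, 134, 206 and 158 CPM, and *Slc3a2* and *Slc7a5* were not lower with GR loss in both backgrounds. Gene by gene, 12 of the 20 were lower and 8 higher with GR loss in each background. Among all 12260 genes, GR loss went with a lower level for 5111 on the lean background and for 6890 on the *ob/ob* background. Among the 9 genes, these counts were 7 and 8. Some transporters outside the 9 were thus lower too, but the GR-loss medians of the 20, -0.12 and -0.04, were smaller in size than the -0.46 and -0.30 of the 9. This difference between the lists was not tested. *Slc43a2* encodes LAT4, a facilitator of branched-chain amino acids related to *Slc43a1*, and was higher past 1.5-fold in all 4 comparisons by CPM. It was at 12.6, 19.3, 20.6 and 38.3 CPM, with log2 ratios of 0.70 and 0.99 with obesity and 0.61 and 0.90 with GR loss. The 0.61 in lean mice was 0.55 under TMM and 0.56 under DESeq2 scaling, below 1.5-fold. *Slc43a2* was higher and *Slc43a1* lower in the *ob/ob* library of each genotype. *Slc1a3*, the glial glutamate transporter, was at 14.1, 6.74, 2.91 and 2.67 CPM, with log2 ratios of -2.28 and -1.34 with obesity. *Slc7a10*, a light chain that exchanges small neutral amino acids and is expressed in fat cells, was at 5.17, 2.82, 4.62 and 2.79 CPM, lower in both GR-mKO libraries.

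**Figure D4:**
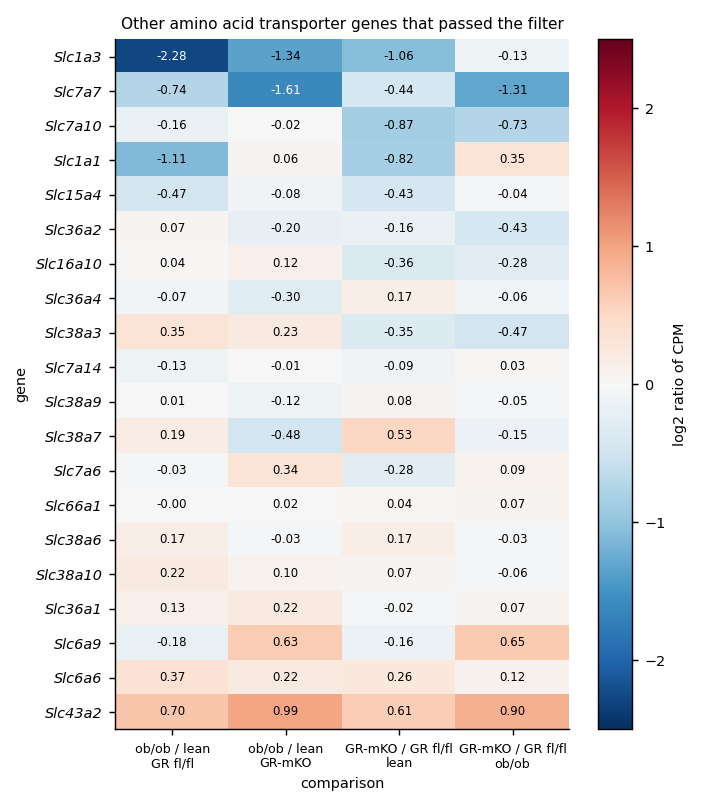
Log2 ratio of CPM (color and printed value) of the 20 further amino acid transporter genes that met the rule on low values (vertical axis) in the 4 comparisons (horizontal axis). *Slc43a2* is above 0.6 and *Slc1a3* below 0 in all 4 columns, and most other genes are within 0.5 of 0.

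ATF4 is the transcription factor through which cells answer a shortage of amino acids, and *Slc7a5*, *Slc3a2*, *Slc7a1*, *Slc38a2* and *Slc1a5* are among its known targets. Of 30 other genes of this response, 28 met the rule on low values. Of the 28, 3 were higher and 5 lower with obesity in each genotype, 1 was higher and 4 lower with GR loss in lean mice, and 1 was higher and 7 lower with GR loss in *ob/ob* mice. Of all genes, 13.1% with and 21.5% without GR were lower with obesity, and 4.38% in lean and 9.44% in *ob/ob* mice with GR loss. The shares of all genes that were higher were 5.89% and 5.51% with obesity, and 6.44% and 5.69% with GR loss, in the same order. Under TMM and DESeq2 scaling, 2 of the 28 rather than 5 were lower with obesity without GR, and 0 rather than 1 were higher with GR loss in lean mice. Medians were -0.09 and -0.23 with obesity and -0.07 and -0.21 with GR loss. *Atf4* itself was at 184, 181, 172 and 150.4 CPM. *Chac1*, which degrades glutathione, was at 103, 42.6, 19.4 and 15.6 CPM, with log2 ratios of -2.41 and -1.45 with obesity. *Ddit4*, an inhibitor of mTORC1 that GR also induces, was at 93.1, 37.1, 26.0 and 23.9 CPM, with -1.84 and -0.64, the latter -0.43 under TMM and -0.42 under DESeq2 scaling and so below 1.5-fold. Both had the lean GR fl/fl library far above the other 3, as *Slc7a8* had. *Cebpb*, a transcription factor, was at 139, 65.2, 69.9 and 44.2 CPM, with log2 ratios of -1.09 and -0.66 with GR loss. *Atf3*, a stress-induced transcription factor, was at 7.52, 8.26, 23.7 and 12.8 CPM, with 1.65 and 0.63 with obesity. The list therefore held genes of opposite order, and *Atf3* was highest in the *ob/ob* GR fl/fl library.

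mTORC1, the kinase complex that senses amino acids at the lysosome, was covered by a list of 32 genes, of which 31 were in the files and all 31 met the rule. With obesity, 3 were higher and 2 lower where GR was intact, and 3 were higher and 5 lower without muscle GR, beside 5.89% and 13.1%, and 5.51% and 21.5%, of all genes. Under TMM and DESeq2 scaling, these counts were 6 higher and 0 lower with GR, and 6 higher and 2 lower without it, so the balance of the list turned with the scaling. With GR loss, 3 were higher and 0 lower in lean mice, and 0 were higher and 2 lower in *ob/ob* mice (1 and 1 under TMM and DESeq2). Of all genes, 6.44% were higher and 4.38% lower in lean mice, and 5.69% and 9.44% in *ob/ob* mice. Medians were 0.01, -0.17, 0.04 and -0.03. *Sesn3*, a leucine sensor family member, was at 18.2, 25.1, 31.3 and 41.97 CPM, with log2 ratios of 0.79 and 0.74 with obesity. *Castor2*, of the family of arginine sensors, was at 72.1, 88.5, 111 and 149 CPM, with 0.62 and 0.75. *Lamtor4*, a subunit of the Ragulator scaffold, was at 36.4, 43.7, 23.8 and 28.8 CPM, with -0.61 and -0.60, neither of which was past 1.5-fold under any of the 4 other scalings. *Sesn3* and *Castor2* were lowest in the lean GR fl/fl and highest in the *ob/ob* GR-mKO library, and *Lamtor4* was lower in both *ob/ob* libraries.

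*Slc1a5* had the widest range of the 9 genes over the 4 libraries, 1.24 on the log2 scale. Among 7772 genes with a mean of at least 10 CPM, the genes with the smallest Euclidean distance to its centered log2 profile over 4 libraries were *Mgst3* (0.0528), a microsomal glutathione transferase, *Dusp7* (0.105), a phosphatase of MAP kinases, and *Sorbs2* (0.141), a cytoskeletal adaptor. *Mgst3* was at 198, 137, 138 and 81.9 CPM, *Dusp7* at 40.9, 27.4, 29.8 and 16.8 CPM, and *Sorbs2* at 27.6, 20.03, 21.9 and 11.4 CPM. As for *Slc1a5*, the lean GR fl/fl library was the highest and the *ob/ob* GR-mKO library the lowest, with the other two close together. In all, 1798 of 12260 genes (14.7%) were highest in the lean GR fl/fl and lowest in the *ob/ob* GR-mKO library, among them 5 of the 9 transporters.

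In bulk tissue, fewer cells of a type and less RNA per cell cannot be told apart. The summed level of 7 adipocyte markers was 996, 644, 573 and 354 CPM in the lean GR fl/fl, the lean GR-mKO, the *ob/ob* GR fl/fl, and then the *ob/ob* GR-mKO library, highest in the first and lowest in the last of these. Its members differed with obesity, since *Cfd* was at 267, 144.5, 14.4 and 8.91 CPM and *Lep* was higher in both *ob/ob* libraries, while *Adipoq* was at 81.4, 48.3, 80.4 and 44.4 CPM. With GR loss, 6 of the 7 in lean and 5 of the 7 in *ob/ob* mice were lower by at least 1.5-fold, where 4.38% and 9.44% of all genes were. Erythroid markers, 8 genes, were at 2233, 2129.6, 973 and 874 CPM. Endothelial markers, 7 genes, were at 541, 629.9, 422 and 381 CPM, and macrophage markers, 7 genes, at 397, 513, 265 and 193 CPM. The erythroid, endothelial and macrophage sums were lower in both *ob/ob* libraries than in both lean libraries. *Slc1a5*, *Slc7a8* and *Slc43a1* were so too, 3 of the 9 transporters where 42.9% of all genes were. Fibroblast markers, 6 genes, were at 5258, 5678, 10397 and 5615 CPM, highest in the *ob/ob* GR fl/fl library through *Col1a1* (1279, 1264, 4108 and 2277 CPM) and *Col1a2* (1269, 1251, 3411 and 1565 CPM), whereas *Dcn* was at 1247, 1343, 882 and 634 CPM. The sum of 4 satellite cell markers was 29.8, 35.5, 47.5 and 38.3 CPM. Slow fiber markers, 9 genes, were at 581, 734, 1239 and 1679 CPM, and 9 of 9 were higher by at least 1.5-fold with obesity in both genotypes, where 5.89% of all genes with and 5.51% without GR were. No marker found in the files was at 0 in any library, so no cell type among them had its defining genes absent. The part of these cell types in the transporter levels was not tested.

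**Figure D5:**
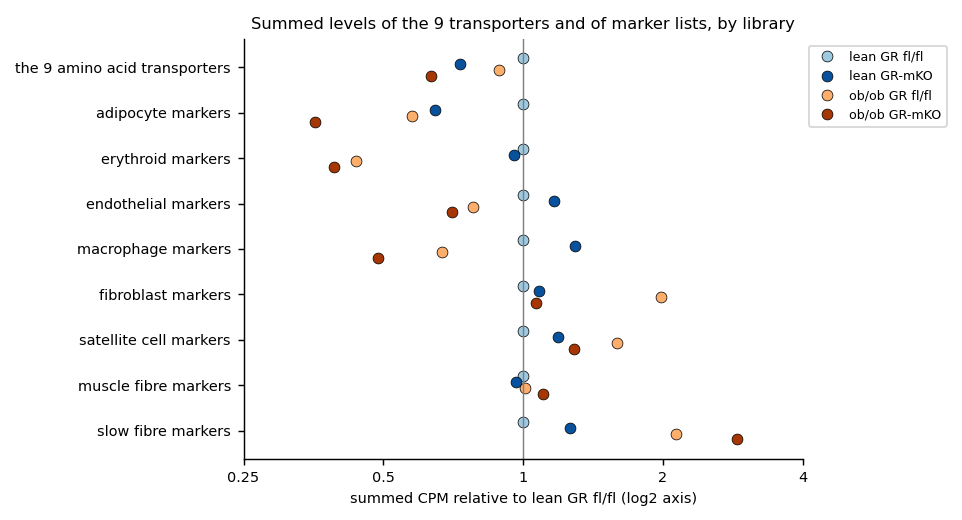
Summed CPM of the 9 transporters and of the marker lists relative to the lean GR fl/fl library (horizontal axis, log2 scale), with 1 point for each library. The transporter sum is at 0.732 in the lean GR-mKO, 0.887 in the *ob/ob* GR fl/fl and 0.635 in the *ob/ob* GR-mKO library, the adipocyte markers at 0.647, 0.575 and 0.356, and the slow fiber markers at 1.26, 2.13 and 2.89.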

How the data were processed

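The 4 deposited tables hold expected counts per gene name, which the authors made from 100-bp paired-end reads with Salmon v1.2.1 on protein-coding GENCODE transcripts (mm10) and summarized in R v3.5.0 with tximport. The paper gives the tximport setting lengthScaledTPM, by which counts are rebuilt from abundances scaled by length and library size. They are thus not raw read counts, and the counting intervals and levels per kilobase given here are approximate. Of duplicated names the authors kept the entry with the largest total. Each name carries 1 transcript, and whether the value covers the other transcripts of a gene could not be told from the sources used here. This bears on *Slc3a2*, *Slc38a4*, *Slc7a1*, *Slc7a2* and *Slc43a1*, which have several protein-coding transcripts.

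The transporters and the other gene lists were chosen with earlier results of these data known. Values were divided by library totals (CPM). Genes above 0 in all 4 libraries with a mean of at least 1 CPM were compared at 1.5-fold, because 1 library a group allows no test. The method of the study, NOISeq, draws technical replicates from single libraries and was not used. Levels have 95% Wilson intervals, ratios exact binomial intervals and differences of ratios normal intervals, from rounded counts (Python 3.11.15, scipy 1.17.1). Code was tested on simulated data.

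All 9 transporters were named. Of each other pathway list, at most 4 genes were named, with a mean of at least 5 CPM and past 1.5-fold in the same direction in both obesity or both GR-loss comparisons, by mean absolute change. *Nr3c1*, *Lep* and *Fkbp5* were added as checks, and *Atf4*, *Slc6a6*, *Slc7a10*, the light chains and the markers *Cfd*, *Adipoq*, *Col1a1*, *Col1a2* and *Dcn* after their values had been seen. Marker lists are otherwise given as sums. Alternatives were edgeR 4.0.16 TMM and DESeq2 1.42.0 factors on rounded counts, upper quartile scaling, totals without the 50 most abundant genes, 2 other filters, a 2-fold threshold and the longest transcript. The other scalings of the pathway lists and the longest transcript for the ratio of light to heavy chains were added after the data had been seen. Gene coordinates are from GENCODE on GRCm38, the build of the files, and promoters from RefSeq GRCm38.p6. *Ahsp*, of the erythroid markers, and 1 gene of the mTORC1 list were not analysed here.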

Additional observations from a re-analysis of the deposited data

How the results depend on the processing

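Of 36 log2 ratios of the 9 transporters, 34 kept their sign under all 4 other scalings, with a largest shift of 0.21. The exceptions were *Slc3a2* with obesity in GR-mKO mice (-0.16, and -0.08 to 0.06 under the other scalings) and *Slc7a5* with GR loss in lean mice (0.03, and -0.03 to 0.02). With obesity in GR-mKO mice, 2 of the 9 genes were higher under TMM and DESeq2 scaling and 1 under upper quartile scaling and without the 50 most abundant genes, against 0 by CPM, while 0 were lower under TMM and DESeq2 and 1 under upper quartile scaling, against 2 by CPM. At 2-fold, 0 of the 9 genes were lower in any comparison. Over all genes, the 1.5-fold calls with obesity in GR-mKO mice were 1270 higher and 1624 lower under TMM, 1306 and 1596 under DESeq2, and 1039 higher under upper quartile scaling. With no minimum mean, 1135 and 1110 genes were higher with obesity with and without GR, 1343 were higher and 1102 lower with GR loss in lean mice, and 1222 were higher and 1737 lower with GR loss in *ob/ob* mice. At 2-fold, 263 were higher and 476 lower with obesity where GR was intact, 229 and 1004 without GR, 234 and 189 with GR loss in lean mice, and 250 and 340 in *ob/ob* mice. No replicate could be left out and no paired analysis was possible because each group had 1 library. Differences between mice cannot be told apart from those between groups, and *Slc7a5* and *Slc7a1*, with 138 to 283 counts a library, had the widest counting intervals.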
